A study of Mus musculus with 24 samples.

Results

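The genes described here carry glucose into the cell, break it down to pyruvate and lactate, store it as glycogen or divert it to the pentose phosphate pathway. They were taken by gene symbol from a list of 34 genes, all of which were found among the 53391 genes quantified. By role, 5 of them serve glucose uptake and phosphorylation, 7 upper glycolysis, 9 lower glycolysis, 9 the fate of pyruvate and lactate, and 4 glycogen and the pentose phosphate pathway. Glycolysis splits each glucose into pyruvate and yields ATP without oxygen. Pyruvate is then reduced to lactate, which monocarboxylate transporters carry out of the cell, or enters the mitochondria. There it is used by pyruvate dehydrogenase, which the Pdk kinases switch off. Many steps have a widely used enzyme form and a form of mature muscle encoded by another gene, and muscle stem cells (MuSCs) are known to be metabolically quiet at rest and to turn to glycolysis on activation.

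Poly(A) RNA of 24 libraries was sequenced, 3 in each of 8 groups, which the study describes as biological triplicates. Freshly isolated MuSCs (FiMuSCs) came from uninjured hindlimb muscle, and activated MuSCs (AMuSCs) from hindlimb muscle 3 days after injection of 10 µM cardiotoxin (CTX), a venom toxin that destroys myofibres. Primary myoblasts, the dividing progeny of MuSCs, were grown in culture, and myotubes were formed from them by 2 days of differentiation. Each of these 4 cell states was taken from WT mice and from *mdx* mice, which carry a mutation in *Dmd* that removes full-length dystrophin. The strains were C57BL/10ScSnJ for WT and C57BL/10ScSn-Dmdmdx/J for *mdx*, both genotypes carried the *Pax7*-nGFP reporter, and the age of the mice used for these libraries was not given in the sources used here. FiMuSCs and AMuSCs were sorted as GFP+ and ITGA7+ cells that lacked CD31, CD45, SCA1 and CD11b. Myoblasts were purified on magnetic columns with the same lineage markers and ITGA7. The RNA kit used for sorted cells was not the one used for cultured cells, and effects of the kit and of culture cannot be told apart.

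Totals ranged from 37280196 to 64429222 expected counts per library. *Dmd* RNA, which the point mutation of *mdx* does not delete, stood at 230 to 262 CPM (counts scaled to the size of the library) in WT and 139 to 150 in *mdx* FiMuSCs, and at 205 to 230 in WT and 38.1 to 47.2 in *mdx* myotubes. *Pax7*, the transcription factor that defines MuSCs, was at 1398 to 1971 CPM in FiMuSCs, 331 to 855 in AMuSCs and 19.7 to 34.9 in myotubes. Markers of macrophages and other leukocytes differed between the sorted groups. Their summed level over 10 genes was 64.1 to 310 CPM in WT and 396 to 1214 in *mdx* FiMuSCs, and 8.75 to 27.0 in WT AMuSCs against 4240, 147 and 291 in the *mdx* AMuSC replicates. Replicate 2 of the *mdx* myoblasts also stood apart, with 173 CPM of these markers against 2.43 to 5.96 in the other myoblast libraries.

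Together the 34 genes took 0.379% to 2.26% of a library's counts. Compared per transcript length, as TPM, in which each transcript's count is divided by its effective length before scaling, their summed level in WT was lowest in FiMuSCs at 3036 ± 52.5 (SD, n = 3) and highest in myotubes at 15010 ± 228. AMuSCs lay between, at 9770 ± 1155, as did myoblasts, at 8393 ± 608. In the same 4 states of *mdx*, taken from FiMuSCs through AMuSCs and myoblasts to myotubes, the summed TPM was 3230 ± 77.7, 8704 ± 1635, 7631 ± 859 and 13780 ± 1635. *Gapdh*, which makes the first high-energy intermediate of lower glycolysis, had the highest TPM of the set in FiMuSCs (1125 ± 40.1 in WT) and in every other group. *Eno1* followed in WT AMuSCs (2392 ± 358), and *Aldoa* in WT myotubes (2620 ± 43.6). At the other end, *Aldoc* reached 4.76 ± 2.37 TPM in WT myotubes, its highest mean. Levels of *Gapdh* are uncertain, since its 186 annotated copies took 24.8% to 48.9% of their common counts in a library, and 1 of them, *Gm12671*, matched it at 100% over 1002 bases. Copies took 16.3% to 26.5% for *Pgk1*, 4.33% to 12.1% for *Pgam1* and 4.14% to 9.02% for *Ldhb*.

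**Figure D1:**
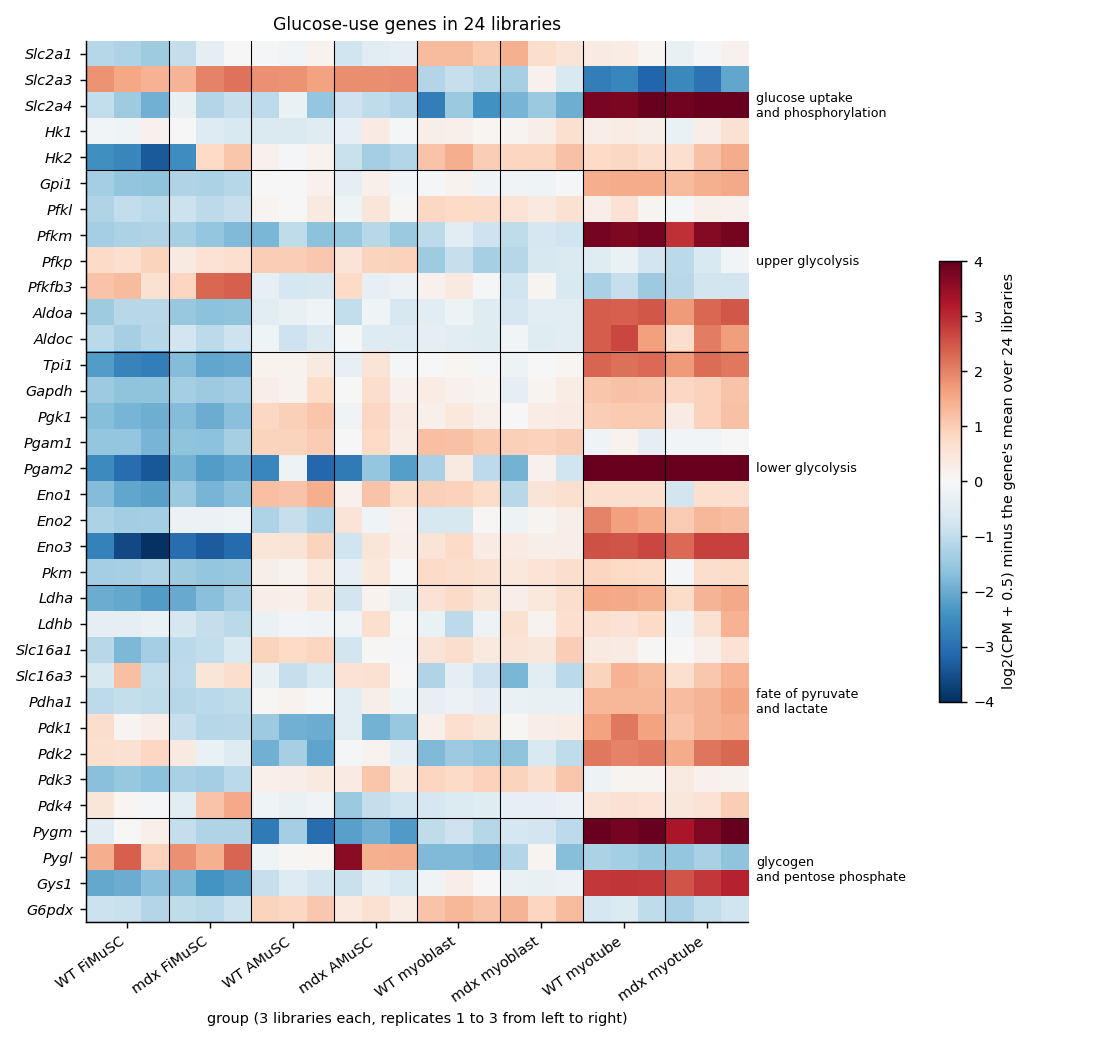
Level of the 34 genes (rows, ordered by role) in the 24 libraries (columns, 3 per group), as log2(CPM + 0.5) minus the mean of the gene over all libraries, with colours cut at 4 in both directions. Blue rows in FiMuSCs turn pale or red in AMuSCs for most of lower glycolysis, and *Slc2a4*, *Pfkm*, *Pgam2* and *Pygm* are dark red in myotubes.

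The first question was how the genes respond when MuSCs are activated by injury. In WT cells, 21 of the 34 genes rose and 6 fell from FiMuSCs to AMuSCs, where 64.6% of all genes tested were called (31.6% higher and 33.1% lower). A gene was called where the adjusted p of the edgeR quasi-likelihood test, corrected over all genes tested, was under 0.05, and log2 changes are given ± their standard error. The median log2 fold change was 1.32 over the 34 genes and -0.08 over all genes. In *mdx* cells, 16 of 34 rose and 3 fell, against 27.3% of all genes called (15.5% higher and 11.7% lower), with medians of 0.815 and -0.02. The libraries of the states did not overlap for any gene called. As genes were called on these same libraries, this is no separate support. The 3 decreases in *mdx* were fewer without some libraries: 1 remained without FiMuSC replicate 2 or 3 or AMuSC replicate 2 or 3. In those fits 13.0% to 21.3% of all genes were called.

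Most genes of lower glycolysis rose in both genotypes. In each, 7 of its 9 genes rose and none fell, with a median log2 change of 2.68 in WT and 1.94 in *mdx*. The muscle enolase gene *Eno3* (chr11:70657202-70662513, plus strand) stood at 51.1, 26.7 and 21.1 CPM in the 3 WT FiMuSC libraries and at 468, 479.9 and 619.7 in WT AMuSCs. It stood at 39.6, 33.1 and 39.4 in *mdx* FiMuSCs and 191, 466 and 386 in *mdx* AMuSCs. The libraries of the states did not overlap in either genotype, and the log2 change was 4.08 ± 0.37, adjusted p = 0.000133 in WT and 3.22 ± 0.34, adjusted p = 0.000931 in *mdx*. *Eno1* (chr4:150236721-150248879, plus strand), the enolase of most tissues, went from 235, 184 and 174 to 1789, 1700 and 2139 CPM in WT, a 10.1-fold rise. In *mdx* it went from 276, 214 and 242 to 868, 1712 and 1290 CPM, a 5.28-fold rise, and replicate 1 of the *mdx* AMuSCs was the lowest of the injured libraries.

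The other steps of the same stretch followed. *Tpi1*, which interconverts the triose phosphates, rose by 2.85 ± 0.15 on the log2 scale in WT and 2.03 ± 0.24 in *mdx*. *Pgk1*, the first ATP-forming step, rose by 2.90 ± 0.11 and 2.20 ± 0.26, and *Pgam1*, the phosphoglycerate mutase of most tissues, by 2.68 ± 0.11 and 1.94 ± 0.23. Smaller were the rises of *Gapdh* (2.05 ± 0.16 and 1.71 ± 0.23) and *Pkm* (1.66 ± 0.10 and 1.56 ± 0.23), which encodes pyruvate kinase. The highest adjusted p among these 5 genes was 0.00321, in *mdx*. Neither *Eno2*, the neuronal enolase, nor *Pgam2*, the muscle mutase, was called in either genotype. *Pgam2* was at 1.87, 11.9 and 1.15 CPM in the WT AMuSCs, with replicate 2 far above the other two, where the myofibre actin *Acta1* was also highest (34.5, 175 and 28.9 CPM).

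Upper glycolysis showed a smaller and mixed response. *Gpi1* (glucose phosphate isomerase), *Pfkl* (liver-type phosphofructokinase) and *Aldoa* (the aldolase of muscle and most tissues) rose in both genotypes, by 1.66 ± 0.10, 1.37 ± 0.12 and 1.01 ± 0.12 in WT. Their rises in *mdx* were 1.14 ± 0.18, 1.11 ± 0.19 and 1.02 ± 0.23, where that of *Aldoa* was not called without FiMuSC replicate 2 (adjusted p = 0.0503). *Pfkfb3*, which makes the activator of phosphofructokinase, fell in both. Its level was 37.2, 40.4 and 25.9 CPM in WT FiMuSCs and 13.2, 9.98 and 10.4 in WT AMuSCs (-1.53 ± 0.18, adjusted p = 0.000142). In *mdx* it was 30.4, 83.8 and 88.7 before injury and 29.6, 13.2 and 14.1 after (-1.85 ± 0.50, adjusted p = 0.0402), where the lowest FiMuSC and the highest AMuSC library nearly met. The *mdx* call was lost without *mdx* AMuSC replicate 2 (0.107) or 3 (0.101) or *mdx* FiMuSC replicate 2 (0.141) or 3 (0.139), given with the adjusted p. *Pfkm*, the muscle phosphofructokinase, was not called (-0.08 ± 0.20 and 0.19 ± 0.18).

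Among genes for lactate, pyruvate and the side branches, *Ldha*, the lactate dehydrogenase that favours lactate, rose in both genotypes. *Pdha1*, the catalytic subunit of pyruvate dehydrogenase, rose by 1.15 ± 0.08 in WT and 0.97 ± 0.19 in *mdx*, and its kinase *Pdk3* by 2.07 ± 0.12 and 1.94 ± 0.25. *G6pdx*, the first enzyme of the pentose phosphate pathway, and *Gys1*, the muscle glycogen synthase, rose in both as well, *Gys1* by 1.27 ± 0.15 and 1.53 ± 0.21. The muscle glycogen phosphorylase *Pygm* fell in both: 72.0, 100 and 115 CPM in WT FiMuSCs against 13.7, 38.5 and 11.5 in WT AMuSCs, and 51.6, 43.1 and 42.8 against 21.5, 25.8 and 20.4 in *mdx*. These libraries did not overlap, with log2 changes of -2.09 ± 0.50, adjusted p = 0.0108 and -1.03 ± 0.16, adjusted p = 0.00364. The WT call was lost without WT FiMuSC replicate 1 (0.0508), 2 (0.0506) or 3 (0.0583), given with the adjusted p.

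Further genes were called in WT. *Aldoc* (2.92 ± 0.86, lost without WT AMuSC replicate 1 (0.072)), *Pfkp* (0.33 ± 0.09) and *Ldhb* (0.24 ± 0.09, lost without WT AMuSC replicate 2 (0.111) or 3 (0.083) or WT FiMuSC replicate 1 (0.087) or 2 (0.107)) rose there, as did *Slc2a1*, *Hk2* and *Slc16a1*. *Pygl*, the liver glycogen phosphorylase (-1.96 ± 0.40), *Hk1*, the constitutive hexokinase (-0.43 ± 0.11), *Pdk1* and *Pdk2* fell. In *mdx*, *Ldhb* rose (1.10 ± 0.24, lost without *mdx* FiMuSC replicate 2 (0.0543)). *Slc2a3* (0.26 ± 0.13 and 0.00 ± 0.21) and *Slc2a4* (0.74 ± 0.44 and -0.30 ± 0.35) were called in neither genotype.

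Other cell types and handling moved with injury as well. In WT, 9 of 9 dissociation and immediate early genes, 8 of 8 endothelial, 7 of 8 fibro-adipogenic, 6 of 6 erythroid and 8 of 10 macrophage and leukocyte markers were lower in AMuSCs. In *mdx* the counts were 8 of 9, 8 of 8, 6 of 8, 5 of 6 and 0 of 10. Of 14 markers of mature myofibres, 3 were higher and 2 lower in WT AMuSCs, and 2 were higher and 5 lower in *mdx*. Their summed level was 391 to 823 CPM before and 429 to 977 after injury in WT, and 343 to 415 and 442 to 739.8 in *mdx*. The summed dissociation genes fell from 14740 to 40490 CPM in WT FiMuSCs to 1832 to 1927 in WT AMuSCs, and from 27130 to 33090 to 2113 to 4689 in *mdx*. Their part in the changes of the glucose genes was not tested. In bulk RNA, fewer cells of a type and less RNA per cell cannot be told apart.

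**Figure D2:**
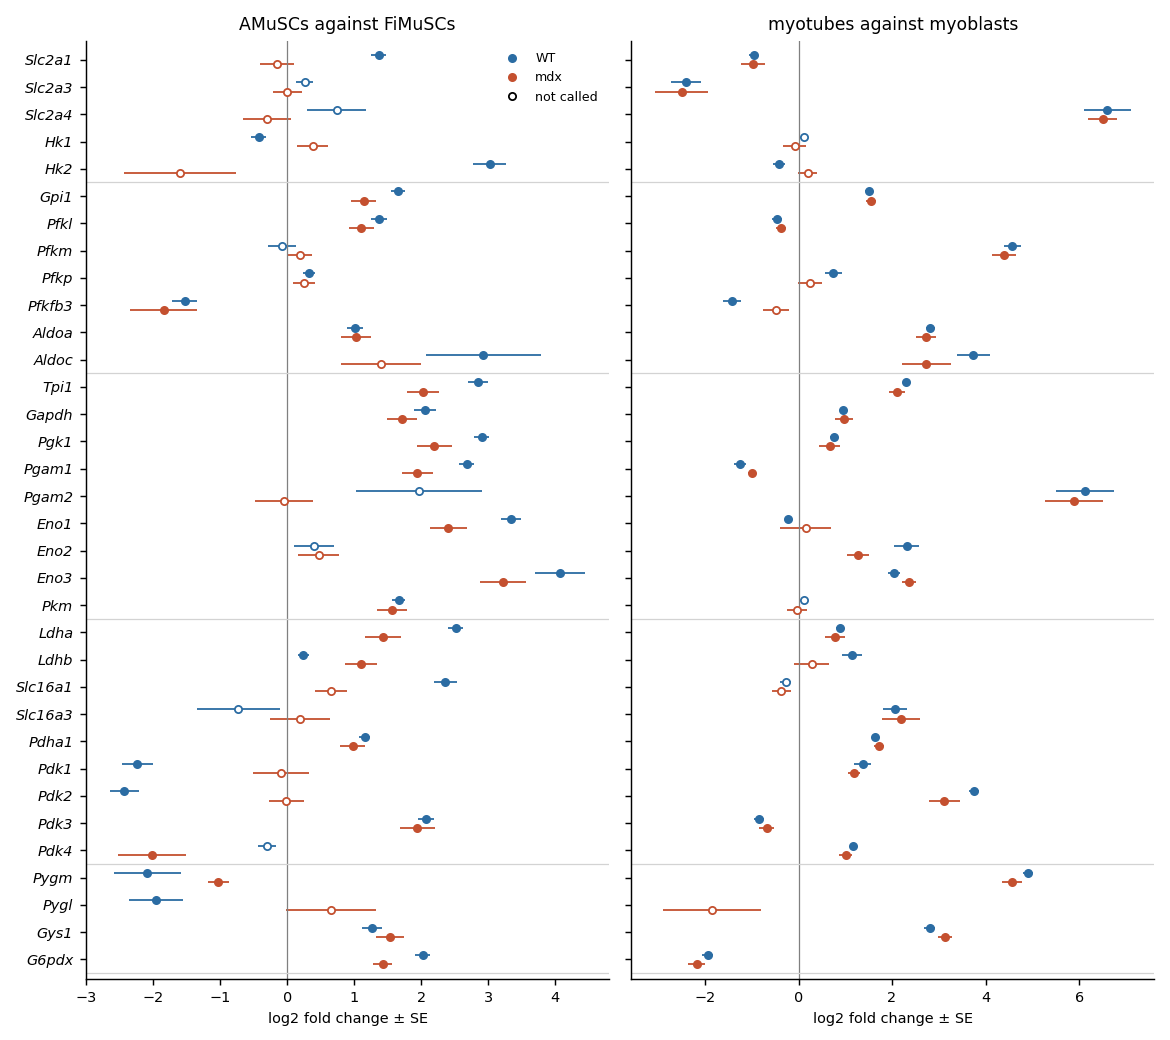
Log2 fold change (points) with its standard error (bars) of each gene from FiMuSCs to AMuSCs (left) and from myoblasts to myotubes (right), in WT (blue) and *mdx* (red). Open points were not called at an adjusted p under 0.05, and a gene with too few counts to be tested has no point. On the left *Hk2*, *Slc2a1*, *Slc16a1*, *Pdk1* and *Pdk2* lie far apart between the genotypes, while on the right the colours lie close together.

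Whether the injury response itself differed between *mdx* and WT was tested as an interaction over the 12 sorted libraries. Of the 34 genes, 2 had a higher and 5 a lower response in *mdx*, where 15.1% of all genes tested were called (8.14% higher and 6.98% lower). The median log2 difference was -0.31 over the 34 genes and -0.03 over all genes. *Hk2*, *Slc2a1*, *Slc16a1*, *Ldha* and *G6pdx* had the lower responses, and *Pdk1* and *Pdk2* the higher ones. None of the 9 genes of lower glycolysis was called, and their median difference was -0.77.

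*Hk2* (chr6:82725025-82774454, minus strand) encodes the hexokinase that traps glucose in insulin-sensitive tissues. Its level was 7.24, 6.44 and 3.59 CPM in WT FiMuSCs and 46.7, 39.8 and 45.4 in WT AMuSCs. In *mdx* it was 7.02, 72.7 and 90.8 CPM in FiMuSCs and 22.4, 16.0 and 18.2 in AMuSCs. Replicate 1 of the *mdx* FiMuSCs thus lay within the WT range, while replicates 2 and 3 lay above every WT AMuSC library. *Hk2* rose 8.13-fold in WT (log2 change 3.02 ± 0.25, adjusted p = 3.16e-05), and in *mdx* the log2 change was -1.60 ± 0.83, adjusted p = 0.218. The difference between the responses was -4.65 ± 0.96, adjusted p = 0.0116. It was -5.17 without *mdx* FiMuSC replicate 1 (adjusted p = 0.000112) and was called without any other single library.

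*Slc2a1* (chr4:119108711-119137983, plus strand) encodes GLUT1, the transporter of basal glucose uptake. It was at 16.8, 15.8 and 13.8 CPM in WT FiMuSCs and 36.1, 34.9 and 41.2 in WT AMuSCs, without overlap. In *mdx* the values were 19.3, 28.8 and 38.2 in FiMuSCs and 21.3, 27.6 and 28.5 in AMuSCs, which overlapped. *Slc2a1* rose in WT (1.36 ± 0.11, adjusted p = 1.5e-05) and was not called in *mdx* (-0.16 ± 0.26, adjusted p = 0.695). The responses differed by -1.55 ± 0.30, adjusted p = 0.00708, with an adjusted p of 0.0612 once differences in effective transcript length between libraries were taken into account.

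*Slc16a1* (chr3:104638668-104658462, plus strand) encodes MCT1, a proton-coupled transporter of lactate and pyruvate. WT FiMuSCs had 39.4, 24.3 and 33.5 CPM and WT AMuSCs 161, 149.8 and 158. The *mdx* FiMuSCs had 40.6, 43.7 and 56.6 CPM and the *mdx* AMuSCs 51.3, 89.6 and 80.6, so all injured *mdx* libraries lay below all injured WT ones, and replicate 1 fell among the uninjured *mdx* libraries. The rise was 5.13-fold in WT, and in *mdx* the log2 change was 0.65 ± 0.24, adjusted p = 0.0799. The difference of -1.74 ± 0.31, adjusted p = 0.00484, was called under each alternative and without each single library.

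*Ldha* (chr7:46841475-46855627, plus strand) was at 160.1, 154 and 135 CPM in WT FiMuSCs and 771, 745 and 901 in WT AMuSCs. In *mdx* it was at 158, 202 and 243 CPM before and 384, 708 and 521 after injury. Both genotypes rose without overlap, by 2.52 ± 0.11 in WT and 1.42 ± 0.27 in *mdx*, and the highest *mdx* AMuSC library remained below the lowest of WT. The difference between the responses was -1.13 ± 0.30, adjusted p = 0.0283. By adjusted p it missed the threshold without WT AMuSC replicate 3 (0.0652), WT FiMuSC replicate 2 (0.0532) or 3 (0.0784) or *mdx* FiMuSC replicate 2 (0.0608) or 3 (0.0701). *G6pdx* (chrX:74409483-74429194, minus strand) was at 83.9, 79.6 and 94.5 CPM in WT and 59.0, 68.9 and 55.0 in *mdx* AMuSCs, and at 19.7 to 24.6 in the 6 FiMuSC libraries. Its difference of -0.62 ± 0.18, adjusted p = 0.0356, was lost without WT AMuSC replicate 1 (0.0653) or 3 (0.0906), WT FiMuSC replicate 2 (0.0594) or 3 (0.103), *mdx* AMuSC replicate 1 (0.0659) or 3 (0.0615) or *mdx* FiMuSC replicate 2 (0.0617) or 3 (0.0917).

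Of the 4 pyruvate dehydrogenase kinases, *Pdk1* and *Pdk2* had higher responses in *mdx*. *Pdk2* (chr11:95026258-95041354, minus strand) was at 35.6, 34.8 and 40.7 CPM in WT FiMuSCs and 5.70, 8.73 and 4.94 in WT AMuSCs. In *mdx* it was at 29.1, 18.9 and 16.0 and 21.4, 25.0 and 17.3. It fell 5.41-fold in WT without overlap, the *mdx* states overlapped (-0.01 ± 0.26, adjusted p = 0.977), and the difference was 2.40 ± 0.35, adjusted p = 0.00192. With effective transcript length taken into account its adjusted p was 0.0781.

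*Pdk1* (chr2:71873224-71903858, plus strand), a kinase known as a target of hypoxia signalling, was at 20.0, 13.0 and 14.6 CPM in WT FiMuSCs and 4.02, 2.81 and 2.64 in WT AMuSCs. The *mdx* values were 6.04, 5.20 and 5.30 before and 8.88, 2.87 and 3.83 after injury, with replicate 1 of the *mdx* AMuSCs above all other AMuSC libraries. *Pdk1* fell in WT (-2.24 ± 0.24, adjusted p = 5.98e-05) and the difference between genotypes was 2.12 ± 0.51, adjusted p = 0.0183. That call was lost without WT AMuSC replicate 3 (0.0535) or *mdx* FiMuSC replicate 2 (0.053) or 3 (0.053), and without *mdx* AMuSC replicate 1 the difference was 1.48. *Pdk4*, a kinase induced by fasting and fatty acids, fell in *mdx* from 49.0, 148 and 189.7 to 23.3, 33.8 and 38.1 CPM (-2.02 ± 0.51, adjusted p = 0.0314), with FiMuSC replicate 1 the lowest before injury. By adjusted p that call was lost without *mdx* AMuSC replicate 2 (0.079) or 3 (0.0621) or *mdx* FiMuSC replicate 2 (0.0939) or 3 (0.0914), and its difference between genotypes missed the threshold (-1.74 ± 0.55, adjusted p = 0.0558).

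The number of genes whose response differed depended on single libraries. Without *mdx* AMuSC replicate 2, whose lower glycolysis genes were nearest to WT, 3 genes had higher and 11 lower responses, and the share called of all genes tested was 22.3%, up from 15.1%. Lower responses numbered 3 without WT FiMuSC replicate 2 or 3, *mdx* FiMuSC replicate 2 or 3, or WT AMuSC replicate 3, where 8.11% to 9.96% of all genes were called. Higher responses numbered 4 without *mdx* AMuSC replicate 1 or 3 or *mdx* FiMuSC replicate 1, and 1 without *mdx* FiMuSC replicate 2 or 3 or WT AMuSC replicate 3. Of all genes, 11.1%, 16.2% and 15.1% were called in the fits with 4, and 8.11% to 9.26% in those with 1. *Hk2*, *Slc2a1* and *Slc16a1* were called without each single library, as was *Pdk2*.

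**Figure D3:**
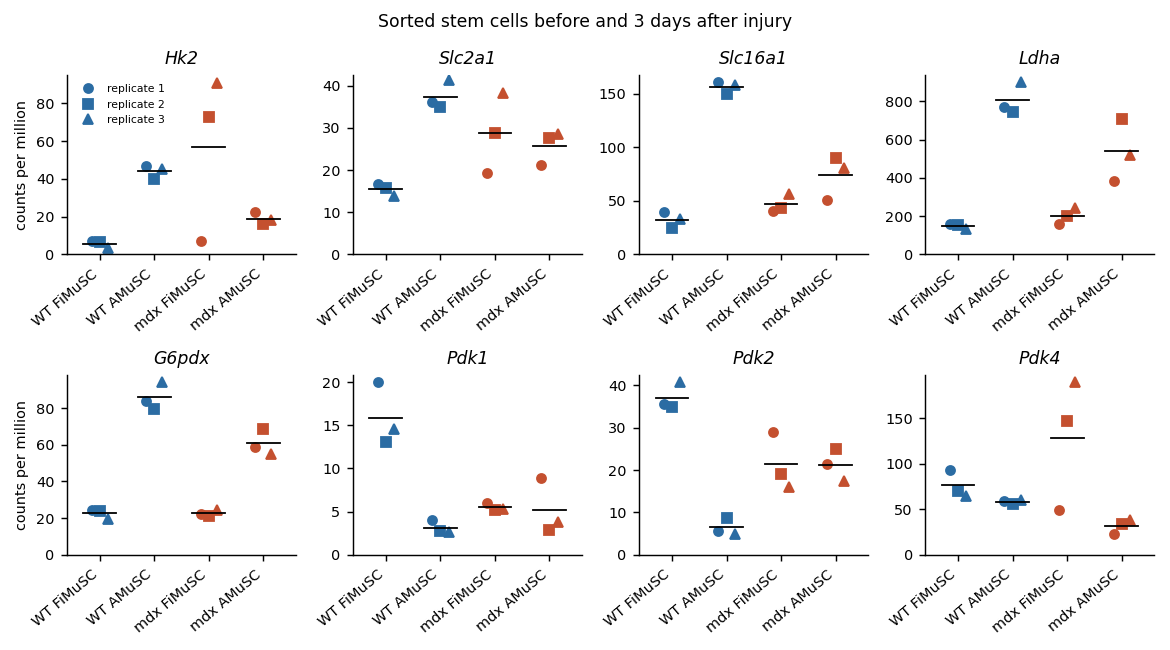
CPM of 8 genes in FiMuSCs and AMuSCs of WT (blue) and *mdx* (red) mice, with 1 point per library shaped by replicate number and a bar at the mean of 3 libraries. WT rises of *Hk2*, *Slc2a1*, *Slc16a1* and *Ldha* stand beside smaller or uncalled changes in *mdx*, and replicate 1 of the *mdx* FiMuSCs lies low for *Hk2* and *Pdk4*.

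The promoters of 4 of the 5 genes with a lower response in *mdx* are shown, those for glucose uptake and phosphorylation and for lactate. All 4 rose in WT, while in *mdx* their log2 changes ran from -1.60 for *Hk2* to 1.42 for *Ldha*. The 250 bases before the start were taken from RefSeq on GRCm38.p6 and are shown 5′ to 3′ on the strand of the gene. Capitals mark matches on either strand to ACGTG, a form of the core that hypoxia-inducible factors recognise. The GCGTG form of that core was not searched. Capitals also mark CANNTG, the E-box letters bound by myogenic and other helix-loop-helix factors. The sequence CACGTG holds both motifs, and ACGTG on both strands. *Hk2* (chr6:82774455-82774704, minus strand) held 2 matches to ACGTG, *Slc2a1* (chr4:119108495-119108744, plus strand) 1, *Slc16a1* (chr3:104638414-104638663, plus strand) 2 and *Ldha* (chr7:46845554-46845803, plus strand) 5. The promoter of *G6pdx*, the remaining gene with a lower response, held none. Of the genes with a higher response, *Pdk2* held 2 in 1 of its 2 promoters and *Pdk1* held none in its 2. The starts of *Slc16a1* and *Ldha* used here are not transcript starts of the annotation used for the counts. A downstream start of *Ldha*, which is one, held no ACGTG.
Hk2: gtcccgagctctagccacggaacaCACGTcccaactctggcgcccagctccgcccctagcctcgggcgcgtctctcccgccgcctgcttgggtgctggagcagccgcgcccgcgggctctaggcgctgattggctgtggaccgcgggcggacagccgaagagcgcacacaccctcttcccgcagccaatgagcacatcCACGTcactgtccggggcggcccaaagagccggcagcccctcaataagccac
Slc2a1: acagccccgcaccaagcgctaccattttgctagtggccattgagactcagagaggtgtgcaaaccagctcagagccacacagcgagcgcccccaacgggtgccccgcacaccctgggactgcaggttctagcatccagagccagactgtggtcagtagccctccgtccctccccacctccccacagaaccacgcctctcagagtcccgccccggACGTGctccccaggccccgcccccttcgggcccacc
Slc16a1: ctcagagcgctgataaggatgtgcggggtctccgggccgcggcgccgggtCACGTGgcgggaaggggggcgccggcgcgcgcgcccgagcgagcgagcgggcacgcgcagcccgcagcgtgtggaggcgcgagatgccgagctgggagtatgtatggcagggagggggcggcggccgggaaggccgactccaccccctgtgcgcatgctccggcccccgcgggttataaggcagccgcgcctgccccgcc
Ldha: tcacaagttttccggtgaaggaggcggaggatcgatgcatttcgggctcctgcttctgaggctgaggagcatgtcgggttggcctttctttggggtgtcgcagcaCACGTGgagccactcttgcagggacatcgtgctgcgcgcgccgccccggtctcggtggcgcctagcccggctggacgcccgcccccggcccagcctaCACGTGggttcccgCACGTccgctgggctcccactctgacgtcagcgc

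Over all genes, 16.6% of 32851 RefSeq promoters of this length held ACGTG. Of 46 promoters of 32 members, 18 did (39.1%), and these belonged to 15 genes. CANNTG was in 66.2% of all promoters and in 29 of the 46 (63.0%), TATAAA in 12.4% and in 1, that of *Eno2*, and the MEF2 motif in 0.5% and in none. Median GC content was 60.4% in the members' promoters and 52.4% in all. A match describes these letters only, and *Slc2a3* and *Slc2a4* had no entry.

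The next question was how *mdx* differed from WT within a state. In FiMuSCs, 33 of the 34 genes could be tested, and 1 was higher and 3 were lower in *mdx*, where 9.67% of all genes tested were called (5.82% higher and 3.85% lower). The median log2 difference was 0.17 over these genes and -0.00193 over all genes. *Eno2*, at 1.08, 0.941 and 0.953 CPM in WT and 2.67, 2.67 and 2.85 in *mdx*, was higher without overlap (1.47 ± 0.22, adjusted p = 0.0113). *Pdk1* was at 20.0, 13.0 and 14.6 CPM in WT and 6.04, 5.20 and 5.30 in *mdx*, 2.86-fold lower (-1.52 ± 0.19, adjusted p = 0.00698). *Pygm* was 2.08-fold lower (-1.05 ± 0.19, adjusted p = 0.02). *Ldhb*, the lactate dehydrogenase of oxidative tissues, was at 31.6, 31.7 and 33.6 CPM in WT and 25.4, 20.7 and 18.8 in *mdx* (-0.57 ± 0.13, adjusted p = 0.0433). All 4 separated the 3 WT from the 3 *mdx* libraries, which for genes already called is no separate support.

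*mdx* FiMuSC replicate 1 decided much of what was called before injury. Without it, 6 genes were higher and 5 lower, where the share called of all genes tested was 12.7% in place of 9.67%, and *Hk2* (3.83, adjusted p = 0.00272), *Pfkfb3* (1.32, 0.0098), *Pdk4* (1.14, 0.0161) and *Slc2a1* (1.11, 0.00766) were among the higher ones. With all libraries these 4 genes had adjusted p values of 0.0645, 0.184, 0.35 and 0.061. Counts of genes higher and lower were 5 and 3 without WT replicate 1, 1 and 1 without WT replicate 2, and 0 and 1 without WT replicate 3 or *mdx* replicate 2 or 3. The share of all genes called was 8.96% without WT replicate 1 and 2.52% to 3.69% in the other fits. By adjusted p, *Eno2* was not called without WT FiMuSC replicate 3 (0.0552) or *mdx* FiMuSC replicate 2 (0.0584) or 3 (0.0521), *Pygm* without WT FiMuSC replicate 2 (0.0697) or 3 (0.0613) or *mdx* FiMuSC replicate 2 (0.0875) or 3 (0.0798), and *Ldhb* without WT FiMuSC replicate 1 (0.0761), 2 (0.111) or 3 (0.138) or *mdx* FiMuSC replicate 2 (0.155) or 3 (0.118). *Pdk1* was called without each single library, and its adjusted p was 0.0673 with effective transcript length taken into account. In the same comparison 6 of 10 macrophage and leukocyte markers were higher in *mdx*, and their summed level was lowest in replicate 1 of the *mdx* FiMuSCs (396 CPM). Endothelial markers were highest in that library, at 724 CPM against 278 and 284 in *mdx* replicates 2 and 3 and 291 to 343 in WT. The part of either list in these differences was not tested.

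In AMuSCs, 5 of the 34 genes were higher and 5 lower in *mdx*, where 23.7% of all genes tested were called (14.8% higher and 8.97% lower). The median log2 difference was -0.16 over the 34 genes and 0.04 over all genes. The lower genes were *Hk2* (-1.24 ± 0.16, adjusted p = 0.00331), *Slc2a1* (-0.56 ± 0.15, adjusted p = 0.0296), *Slc16a1* (-1.11 ± 0.19, adjusted p = 0.00787), *Pdk4* (-0.90 ± 0.18, adjusted p = 0.013) and *G6pdx* (-0.53 ± 0.12, adjusted p = 0.0172). WT and *mdx* libraries did not overlap for any of them. The higher genes were *Pdk2* (1.69 ± 0.25, adjusted p = 0.00449), *Eno2* (1.60 ± 0.34, adjusted p = 0.0158), *Slc16a3* (1.03 ± 0.24, adjusted p = 0.0211), *Hk1* (0.54 ± 0.16, adjusted p = 0.0428) and *Pygl* (2.92 ± 0.71, adjusted p = 0.0292). None of these overlapped either, and for genes already called this is no separate support.

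Most of these calls were lost without some single library, for the most part one of WT. Only those of *Hk2* and *Slc16a1* held with effective transcript length taken into account (adjusted p = 0.0282 and 0.0207). By adjusted p, *Slc2a1* was lost without WT AMuSC replicate 1 (0.0991), 2 (0.0776) or 3 (0.12), and *G6pdx* without WT AMuSC replicate 1 (0.0783), 2 (0.0535) or 3 (0.0845). *Pdk4* was lost without WT AMuSC replicate 1 (0.0591) or 3 (0.0617), *Eno2* without WT AMuSC replicate 1 (0.0794) or 3 (0.0771), and *Slc16a3* without WT AMuSC replicate 2 (0.0847) or 3 (0.0909). *Hk1* was lost without WT AMuSC replicate 1 (0.156), 2 (0.147) or 3 (0.13) or *mdx* AMuSC replicate 2 (0.0554) or 3 (0.0789).

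Pairs of related genes differed in opposite directions. *Hk1* (chr10:62268855-62379908, minus strand), the constitutive hexokinase, was at 96.6, 97.6 and 103 CPM in WT and 116, 183 and 141 in *mdx* AMuSCs. By TPM *Hk2* made up 23.5 ± 5.83% (SD, n = 3) of the summed TPM of *Hk1* and *Hk2* in WT and 8.88 ± 4.52% in *mdx* AMuSCs. *Slc16a3*, which encodes MCT4, the lactate exporter of glycolytic cells, was at 8.26, 5.20 and 6.55 CPM in WT and 15.4, 15.9 and 10.4 in *mdx*. The share of *Slc16a1* in the summed TPM of both lactate transporters was 90.5 ± 2.48% in WT and 70.6 ± 5.46% in *mdx* (95.9% and 83.5% by counts). For the glucose transporters, *Slc2a1* made up 63.3 ± 3.10% of the TPM of *Slc2a1*, *Slc2a3* and *Slc2a4* in WT and 36.9 ± 7.46% in *mdx*, and *Slc2a3*, the high-affinity GLUT3, 30.9 ± 1.52% and 59.5 ± 6.14%. By counts, which take no account of transcript length, the mean shares moved less, from 56.3% to 45.3% for *Slc2a1* and from 38.9% to 49.7% for *Slc2a3*. *Slc2a3* itself was at 23.4 to 27.4 CPM in WT and 27.9 to 28.4 in *mdx*, a difference that was not called (0.10 ± 0.12, adjusted p = 0.619). With effective transcript length taken into account, *Slc2a3* was called higher in *mdx* (1.43, adjusted p = 0.00694) and *Slc2a1* was not called (-0.23, adjusted p = 0.643).

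The liver glycogen phosphorylase gene *Pygl* had a difference whose size depended on 1 library. It was at 1.18, 1.48 and 1.49 CPM in WT and 22.6, 4.58 and 4.64 in *mdx*, and without *mdx* replicate 1 the difference was 1.70 (adjusted p = 0.00988). Without WT replicate 1, 2 or 3 it was not called (adjusted p = 0.125, 0.108 and 0.111). Replicate 1 also held the most leukocyte RNA, with *Ptprc* at 168, 4.47 and 16.5 CPM and *Csf1r* at 353, 11.6 and 26.1 across the *mdx* replicates. WT AMuSCs had 0.126, 0.123 and 0.624 CPM of *Ptprc*. Of the marker lists, 5 of 10 macrophage and leukocyte, 5 of 8 fibro-adipogenic, 3 of 8 endothelial, 3 of 6 erythroid, 2 of 9 dissociation and 0 of 14 myofibre markers were higher in *mdx*. Fibro-adipogenic markers summed to 570 to 673 CPM in WT and 1665 to 2472 in *mdx*. Without replicate 1 of the *mdx* AMuSCs, 5 genes remained higher and 5 lower, with 19.7% of all genes called in place of 23.7%. The log2 differences were then -1.40 for *Hk2*, -0.91 for *Slc16a1* and 1.67 for *Pdk2*.

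Of the 9 genes of lower glycolysis only *Eno2* was called in AMuSCs, and their median log2 difference was -0.56. *Pgam1*, *Ldha* and *Pgk1* had log2 differences of -0.56 ± 0.19, adjusted p = 0.0694, -0.62 ± 0.21, adjusted p = 0.0714 and -0.61 ± 0.23, adjusted p = 0.0852. The *mdx* replicate 2, with *Pgk1* at 728 CPM against 372 and 514 in replicates 1 and 3, was the one nearest to WT (732 to 884). Without it 4 genes were higher and 13 lower, with 31.1% of all genes called in place of 23.7%, and *Pgam1* (0.00562), *Ldha* (0.00957), *Pgk1* (0.00907) and *Eno1* (0.0184) were then among the lower genes by adjusted p. In the other direction, 2 genes were higher and 2 lower without WT replicate 1, 3 and 3 without WT replicate 2, and 1 and 2 without WT replicate 3, where at most 9.16% of all genes were called. *Hk2*, *Slc16a1* and *Pdk2* were called without each single library. *Pdk2* was not called with effective transcript length taken into account (adjusted p = 0.0686), nor *Hk2* in one fit over all 24 libraries (0.0861).

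Cultured myoblasts were then set beside AMuSCs of the same genotype. In WT, 13 of the 34 genes were higher and 10 lower in myoblasts, where 56.3% of all genes tested were called (28.9% higher and 27.4% lower), with medians of 0.14 over the 34 genes and -0.03 over all genes. In *mdx*, 6 were higher and 3 lower, against 18.9% called (10.9% higher and 7.95% lower), with medians of 0.21 and -0.08. *Slc2a1*, *Hk2* and *G6pdx* were higher and *Slc2a3* and *Pfkp* lower in both genotypes.

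*Slc2a1* reached 91.1, 90.1 and 78.2 CPM in WT myoblasts (1.20 ± 0.09, adjusted p = 1.18e-05) and 101, 61.5 and 53.6 in *mdx* myoblasts (1.45 ± 0.26, adjusted p = 0.0122). *Slc2a3* (chr6:122727809-122801640, minus strand) was at 2.99, 3.61 and 3.09 CPM in WT and 2.63, 8.35 and 4.65 in *mdx* myoblasts, 8.06-fold and 5.54-fold below the AMuSCs of the same genotype. By TPM, GLUT1 made up 98.3 ± 0.568% of the 3 transporters in WT and 88.0 ± 10.4% in *mdx* myoblasts. *Pfkp*, the platelet-type phosphofructokinase, was at 18.9, 27.1 and 20.4 CPM in WT myoblasts against 103, 103 and 109.9 in WT AMuSCs (-2.26 ± 0.13, adjusted p = 4.58e-06) and was lower in *mdx* too (-1.61 ± 0.20, adjusted p = 0.00308). Its share of phosphofructokinase TPM was 56.0 ± 3.32% in WT AMuSCs and 14.1 ± 2.47% in WT myoblasts, where *Pfkl* took 49.8 ± 8.89%. *Hk2* was 2.19-fold higher in WT and 4.21-fold higher in *mdx* myoblasts.

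None of the genes called between WT and *mdx* AMuSCs was called by edgeR between the genotypes in myoblasts, where 0.36% of all genes tested were. *Pdk4* was higher in each *mdx* myoblast library than in any of WT. So was *Pygl*, which had 1.55 CPM or less in these libraries and was not tested there. *Hk2* was at 92.3, 115 and 82.8 CPM in WT and 75.5, 75.7 and 93.8 in *mdx* myoblasts, and *Slc16a1* at 124, 140.3 and 114 and 124, 118 and 170.4. *Pdk1* was higher in WT myoblasts than in WT AMuSCs (2.39 ± 0.21, adjusted p = 2.43e-05), and its *mdx* difference was 1.36 ± 0.43, adjusted p = 0.0702. *Slc16a1* was lower in WT myoblasts (-0.32 ± 0.08, adjusted p = 0.0104) and higher in *mdx* ones (0.86 ± 0.24, adjusted p = 0.0486). *Pdk4* did likewise, with -0.40 ± 0.07, adjusted p = 0.0017 in WT and 0.74 ± 0.19, adjusted p = 0.039 in *mdx*. No test of the difference between genotypes was run for the step from AMuSCs to myoblasts. By adjusted p, the *mdx* call of *Slc16a1* was lost without *mdx* AMuSC replicate 1 (0.0759) or 3 (0.106) or *mdx* myoblast replicate 1 (0.0867), 2 (0.0557) or 3 (0.105), and that of *Pdk4* without *mdx* AMuSC replicate 2 (0.0561) or *mdx* myoblast replicate 1 (0.0861), 2 (0.0711) or 3 (0.0917).

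Among the other *mdx* calls, *Pygm* was higher in myoblasts (1.26 ± 0.16, adjusted p = 0.00317) and *Slc16a3* lower (-1.55 ± 0.41, adjusted p = 0.0418). By adjusted p, that of *Slc16a3* was lost without *mdx* AMuSC replicate 1 (0.0933), 2 (0.0901) or 3 (0.074) or *mdx* myoblast replicate 1 (0.0767) or 3 (0.138), *G6pdx* without *mdx* AMuSC replicate 1 (0.0644) or 3 (0.0918) or *mdx* myoblast replicate 1 (0.0908) or 3 (0.0699), and *Slc2a3* without *mdx* myoblast replicate 3 (0.0504). The WT calls of *G6pdx*, *Ldha*, *Pgam1*, *Tpi1*, *Eno2* and *Slc2a4* were also each lost without at least 1 library. Higher and lower genes numbered 11 and 2 without *mdx* AMuSC replicate 2, 5 and 2 without AMuSC replicate 1, and 4 and 2 without AMuSC replicate 3. Higher and lower genes numbered 3 and 2 without myoblast replicate 1, 4 and 5 without myoblast replicate 2, and 3 and 1 without myoblast replicate 3. There the share of all genes was 9.67%, 15.3% and 8.75%. The WT AMuSCs held 1832 to 1927 CPM of dissociation and immediate early genes and the WT myoblasts 439 to 519, and 9 of 9 of these genes were lower in WT myoblasts. In *mdx* myoblasts the sum was 421 to 4532 CPM, highest in replicate 2. *Ptprc* was at 0 in the 3 WT myoblast libraries.

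The step from dividing myoblasts to myotubes, which fuse and build contractile fibres, was examined next. From myoblasts to myotubes 21 of 33 genes tested rose and 9 fell in WT, where 69.4% of all genes tested were called (34.9% higher and 34.5% lower). In *mdx* 19 of 34 rose and 6 fell, against 52.2% called (25.8% higher and 26.5% lower). The median log2 change was 1.14 in WT and 0.88 in *mdx* over these genes and -0.02 and -0.07 over all genes. Of 14 markers of mature myofibres, 13 rose in WT and 14 in *mdx*, and the summed level of these markers was 33930 to 39270 CPM in WT and 23340 to 34190 in *mdx* myotubes.

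In WT the 4 largest rises were those of *Slc2a4*, *Pgam2*, *Pygm* and *Pfkm*. *Slc2a4* (chr11:69942539-69948188, minus strand) encodes GLUT4, the insulin-responsive transporter of muscle and fat. It was at 0.469, 1.89 and 0.731 CPM in WT myoblasts and 91.5, 89.7 and 117 in WT myotubes, a log2 change of 6.60 ± 0.50, adjusted p = 0.000113. In *mdx* it was at 1.34, 1.86 and 1.21 and 95.7, 125 and 177 (6.51 ± 0.31, adjusted p = 5.01e-05). *Slc2a1* and *Slc2a3* fell in both genotypes, with log2 changes of -0.96 ± 0.09 and -2.40 ± 0.33 in WT and -0.97 ± 0.26 and -2.50 ± 0.57 in *mdx*. GLUT4 thus went from 0.761 ± 0.511% to 64.0 ± 7.78% of the TPM of the 3 transporters in WT and from 2.10 ± 1.15% to 77.0 ± 1.32% in *mdx*. The fall of *Slc2a1* in *mdx* was lost without *mdx* myotube replicate 1 (0.0712) or 2 (0.0708), given with the adjusted p. *Hk2* fell in WT (-0.42 ± 0.13, lost without WT myotube replicate 1 (0.0516) or 3 (0.0611)), and its *mdx* change was 0.20 ± 0.20, adjusted p = 0.459.

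*Pfkm* (chr15:98092589-98132451, plus strand) was at 45.9, 69.4 and 53.2 CPM in WT myoblasts and 1364, 1261 and 1361 in WT myotubes (4.57 ± 0.17, adjusted p = 8.33e-07). In *mdx* it was at 46.5, 58.7 and 54.1 and 722, 1219 and 1359 (4.39 ± 0.26, adjusted p = 7.91e-05), with myotube replicate 1 lowest. *Pfkl* fell in both genotypes (-0.46 ± 0.11 and -0.38 ± 0.11, the latter lost without *mdx* myoblast replicate 1 (0.0602) or 3 (0.0747) or *mdx* myotube replicate 3 (0.052)), and *Pfkm* rose from 36.1 ± 6.43% to 92.8 ± 1.79% of phosphofructokinase TPM in WT and from 36.6 ± 4.32% to 91.3 ± 1.504% in *mdx*. *Aldoa* rose to 5886 to 6318 CPM in WT myotubes, 7.04-fold above myoblasts, and 6.61-fold in *mdx*. *Aldoc*, the brain aldolase, also rose (3.74 ± 0.35 in WT and 2.73 ± 0.53 in *mdx*) but remained at 1.52 to 7.37 CPM.

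The phosphoglycerate mutases exchanged places. *Pgam2* (chr11:5801640-5803733, minus strand), the muscle form, was at 5.35, 17.9 and 6.49 CPM in WT myoblasts and 715, 661 and 699 in WT myotubes (6.13 ± 0.62, adjusted p = 0.000568). *Pgam1* (chr19:41911923-41918660, plus strand) fell from 508, 501 and 452 to 194, 245 and 172 CPM (-1.25 ± 0.13, adjusted p = 0.000109). Neither pair of states overlapped. In *mdx* the log2 changes were 5.90 ± 0.62 for *Pgam2* and -1.01 ± 0.08 for *Pgam1*. By TPM *Pgam2* made up 5.04 ± 3.21% of the pair in WT myoblasts and 90.05 ± 1.97% in WT myotubes, and 86.9 ± 2.20% in *mdx* myotubes. Myoblast replicate 2 had the highest *Pgam2* in both genotypes, beside the highest *Myh3*, an embryonic myosin of differentiating cells, at 135, 928 and 138 CPM in WT and 71.7, 342 and 63.4 in *mdx*.

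The promoters of this pair are shown because the genes changed in opposite directions, with the same motifs in capitals. That of *Pgam1* (chr19:41911621-41911870, plus strand) held 1 match to ACGTG and 0 to CANNTG. That of *Pgam2* (chr11:5803797-5804046, minus strand) held 0 and 5. In both genes the RefSeq start used here is not a transcript start of the annotation used for the counts.
Pgam1: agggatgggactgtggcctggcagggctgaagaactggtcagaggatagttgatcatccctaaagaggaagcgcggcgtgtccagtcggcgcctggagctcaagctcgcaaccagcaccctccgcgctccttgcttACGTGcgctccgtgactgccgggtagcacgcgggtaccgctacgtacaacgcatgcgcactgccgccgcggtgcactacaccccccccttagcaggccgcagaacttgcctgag
Pgam2: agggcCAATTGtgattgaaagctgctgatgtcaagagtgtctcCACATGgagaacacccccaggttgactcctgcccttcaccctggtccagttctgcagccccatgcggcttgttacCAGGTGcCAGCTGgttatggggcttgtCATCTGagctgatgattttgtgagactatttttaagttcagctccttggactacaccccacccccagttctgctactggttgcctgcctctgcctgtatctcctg

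Enolase shifted as well. *Eno3* rose from 477, 573 and 415 to 1965, 1899 and 2107 CPM in WT (2.04 ± 0.13, adjusted p = 5e-06) and 5.13-fold in *mdx*, and its share of enolase TPM from 25.9 ± 2.13% to 62.9 ± 0.902% in WT. *Eno1* fell in WT (-0.22 ± 0.07, lost without WT myoblast replicate 1 (0.0793) or 2 (0.0527) or WT myotube replicate 1 (0.0544)). *Eno2* rose in both from low levels (2.31 ± 0.27 and 1.28 ± 0.24). *Tpi1* rose 4.92-fold in WT and 4.30-fold in *mdx*, and *Gpi1* 2.85-fold and 2.93-fold. *Gapdh* (0.95 ± 0.07 and 0.97 ± 0.19) and *Pgk1* (0.76 ± 0.08 and 0.66 ± 0.22) rose less. The rise of *Pgk1* in *mdx* overlapped between states and was lost without *mdx* myoblast replicate 1 (0.116), 2 (0.0805) or 3 (0.0726) or *mdx* myotube replicate 2 (0.123) or 3 (0.128).

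**Figure D4:**
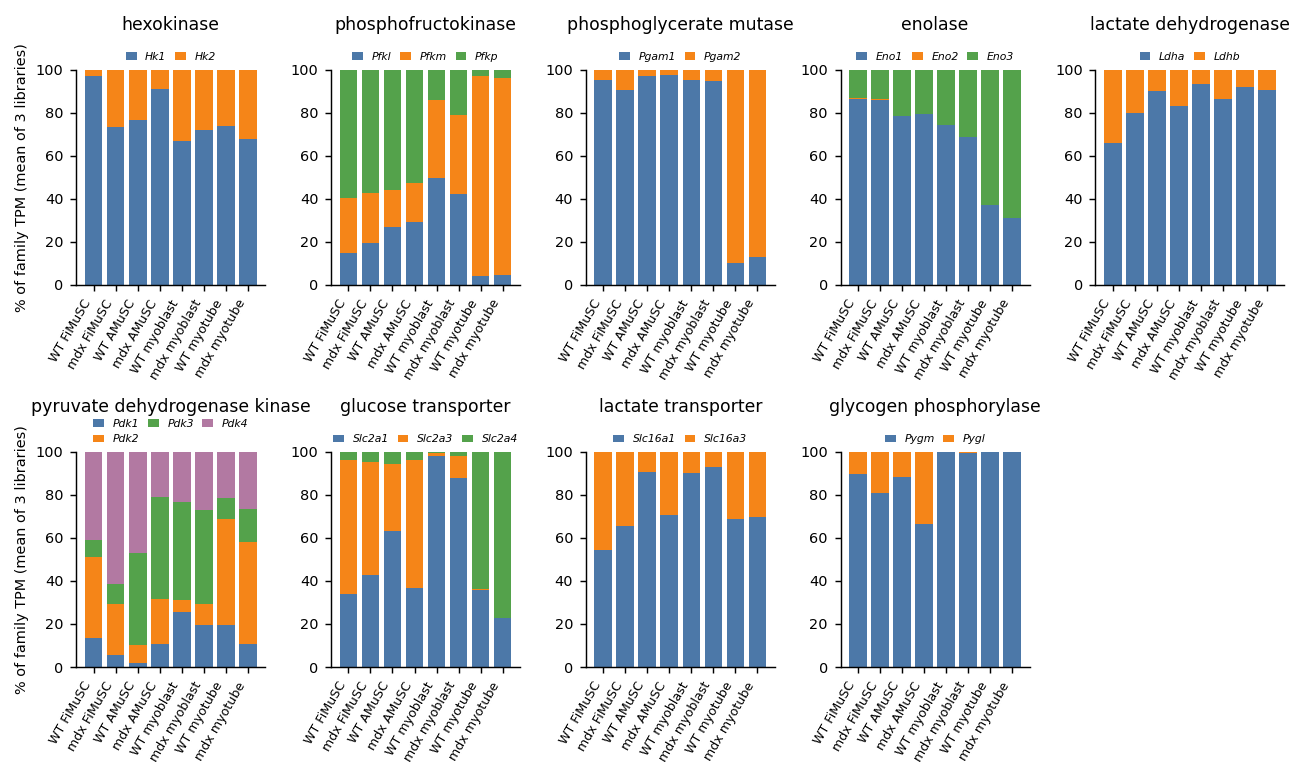
Share of each gene in the summed TPM of its enzyme or transporter family (vertical axis, percent, mean of 3 libraries) in the 8 groups. In myotubes *Pfkm*, *Pgam2*, *Eno3* and *Slc2a4* take 92.8 ± 1.79%, 90.05 ± 1.97%, 62.9 ± 0.902% and 64.0 ± 7.78% (SD) of their families in WT. In AMuSCs *Slc2a3* takes 59.5 ± 6.14% in *mdx* and 30.9 ± 1.52% in WT. *Pygl* takes 33.4 ± 24.3% in *mdx* and 11.5 ± 14.1% in WT AMuSCs, with libraries that overlap.

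*Pkm* as a gene was not called between myoblasts and myotubes (0.12 ± 0.07 in WT and -0.03 ± 0.21 in *mdx*), while its transcripts changed places. The gene (chr9:59656368-59679375, plus strand) has a pair of alternative ninth exons. The M1 form (Pkm-202), typical of adult muscle, uses exon chr9:59675029-59675195, and the M2 form (Pkm-201), typical of dividing cells, uses exon chr9:59675568-59675734. Both are wholly coding, both are 167 bases long on the plus strand, and they are the part that tells the transcripts apart. Capitals mark the 64 positions at which these exons differ (61.68% identity, GRCm38).
Pkm-202: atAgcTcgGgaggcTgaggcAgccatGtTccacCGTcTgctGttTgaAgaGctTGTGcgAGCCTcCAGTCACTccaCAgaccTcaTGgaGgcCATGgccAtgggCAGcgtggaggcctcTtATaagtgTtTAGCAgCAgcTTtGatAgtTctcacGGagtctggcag
Pkm-201: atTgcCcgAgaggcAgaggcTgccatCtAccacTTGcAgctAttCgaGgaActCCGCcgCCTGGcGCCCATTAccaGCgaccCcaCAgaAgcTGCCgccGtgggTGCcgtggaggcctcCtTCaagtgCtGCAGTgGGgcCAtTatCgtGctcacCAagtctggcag

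The M1 transcript made up 25.9 ± 2.73% (SD, n = 3) of the TPM of both in WT myoblasts, against 63.2 ± 0.248% once they had formed myotubes. In *mdx* these shares were 21.03 ± 1.16% and 62.7 ± 1.91%. FiMuSCs stood at 27.6 ± 1.32% in WT and 26.5 ± 2.02% in *mdx*, and AMuSCs at 19.5 ± 3.25% and 18.1 ± 1.30%. The 6 myotube libraries, at 60.45% to 63.9%, lay apart from all 18 others, at 15.95% to 29.0%. Between myoblasts and myotubes the share differed by 39.4 percentage points on average, with p = 0.005 in a two-sided exact permutation test that kept libraries within their genotype, the smallest p its 400 permutations allow. That test was chosen after the values were seen, and it treated myoblast and myotube libraries as independent. Whether same-numbered libraries came from the same culture is not given in the labels, and if they did, this p is too small. Within a genotype, 3 libraries against 3 cannot go below 0.1. Together both transcripts held 66.2% to 84.0% of *Pkm* TPM.

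For the fate of pyruvate, genes of both the lactate and the mitochondrial route rose. *Ldha* rose in WT (0.88 ± 0.08) and *mdx* (0.79 ± 0.21), the latter lost without *mdx* myoblast replicate 1 (0.0621) or 2 (0.0588) or *mdx* myotube replicate 2 (0.0684) or 3 (0.0632). *Slc16a3* rose 4.20-fold in WT and 4.58-fold in *mdx*, and *Pdha1* 3.11-fold and 3.28-fold. *Pdk2* was at 6.31, 7.98 and 7.36 CPM in WT myoblasts and 101, 91.6 and 97.1 in WT myotubes, 13.5-fold higher, and 8.66-fold higher in *mdx*. *Pdk4* rose by 1.16 ± 0.07 and 1.00 ± 0.15, while *Pdk3* fell by 0.85 in WT and 0.69 in *mdx* on the log2 scale. *Pdk1* was called higher in both (1.37 ± 0.19 and 1.18 ± 0.13), but with effective transcript length taken into account the changes were 0.74 (adjusted p = 0.0823) and -0.04 (0.946), so that its direction in *mdx* turned.

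Glycogen genes rose and the pentose phosphate entry fell. *Pygm* (chr19:6384399-6398459, plus strand) was at 49.3, 56.3 and 45.1 CPM in WT myoblasts and 1537, 1421 and 1549 in WT myotubes (4.91 ± 0.11, adjusted p = 9.6e-08), and at 60.5, 57.9 and 47.5 and 957, 1313 and 1576 in *mdx* (4.56 ± 0.22, adjusted p = 4.67e-05). *Gys1* rose 6.97-fold in WT and 8.75-fold in *mdx*. *G6pdx* was at 100.4, 112 and 99.4 CPM in WT myoblasts and 27.9, 30.4 and 22.04 in WT myotubes, 3.86-fold lower, and 4.53-fold lower in *mdx*. *Pygl* was at 0.0170 to 1.55 CPM in culture and was not tested in WT.

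Between WT and *mdx*, cultured cells gave no calls among these genes. In myoblasts 0 of 33 genes tested were called by edgeR, where 0.36% of all genes were (0.244% higher and 0.116% lower). There, 5 genes had a p under 0.05 before adjustment, and DESeq2 called 2 higher, *Ldhb* and *Pygl*, and 2.93% of all genes. In myotubes 0 of 33 were called, against 0.591% of all genes (0.373% higher and 0.218% lower). Before adjustment 4 had a p under 0.05, and DESeq2 called 0, against 2.32% of all genes. The median log2 difference over these genes was -0.07 in myoblasts and -0.15 in myotubes. For the difference of the differentiation response between genotypes, 0 of 34 were called against 0.0592% of all genes (0.0269% higher and 0.0323% lower). Of these genes 4 had a p under 0.05 before adjustment, and DESeq2 called 0, against 0.878% of all genes. Among the genes tested, *Ldhb* had the largest log2 difference in myoblasts (0.97 ± 0.25, adjusted p = 0.205), at 33.5, 19.6 and 34.8 CPM in WT and 61.7, 44.7 and 65.1 in *mdx* without overlap, and *Eno1* stood at -0.67 ± 0.44, adjusted p = 0.546. *Pygl* had too few counts for the edgeR test there, at 0.0541, 0.0536 and 0.0170 CPM in WT and 0.344, 1.55 and 0.0758 in *mdx*, highest in the *mdx* library with the most leukocyte RNA. Its adjusted p was 0.0337 by DESeq2, 0.0333 in one fit over all 24 libraries and 0.242 by edgeR with no filter on low counts.

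*Eno1* in culture depended on how reads were shared with a near-identical copy. The copy *Eno1b* matches *Eno1* at 99.48% over 1736 aligned bases. *Eno1* was at 356, 1103 and 1206 CPM in *mdx* myoblasts and 468, 1219 and 1248 in *mdx* myotubes, while *Eno1b* was at 679.5, 117.5 and 19.7 and at 624, 15.7 and 59.4. In the 18 libraries of the other groups *Eno1b* was at 0 to 27.5 CPM. With its copies added, *Eno1* came to 1327, 1232 and 1230 CPM in *mdx* and 1513, 1491 and 1312 in WT myoblasts, and the low values of replicate 1 were gone. The reads of *Eno1* and *Eno1b* cannot be told apart here, and levels of *Eno1* in these libraries are uncertain.

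**Figure D5:**
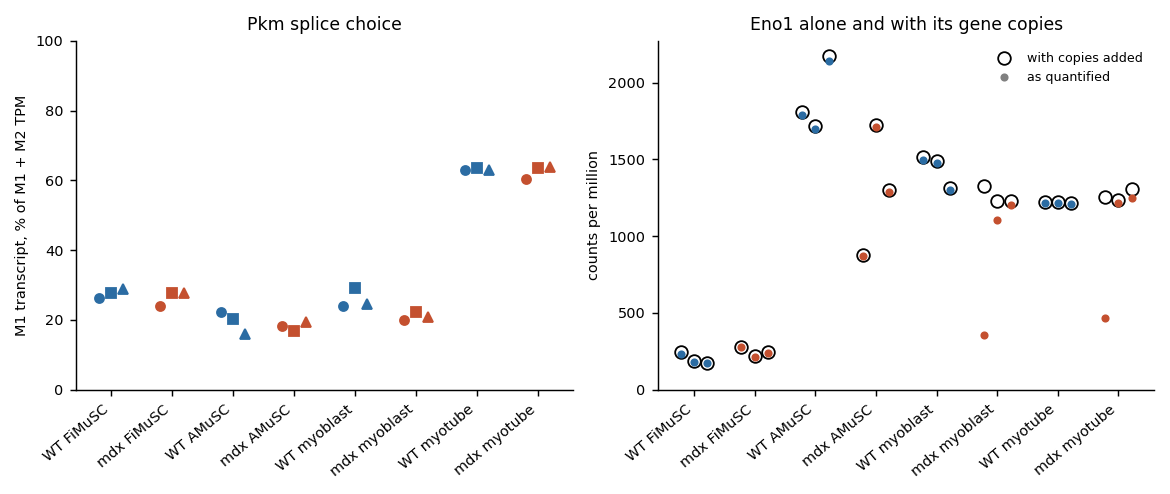
Left, share of the M1 transcript in the TPM of both *Pkm* transcripts (percent) in each library of the 8 groups. Right, CPM of *Eno1* as quantified (filled) and with its gene copies added (open circles), where the low filled points of *mdx* myoblast and myotube replicate 1 (356 and 468 CPM) sit under open circles at 1327 and 1256.

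Other genes of glucose use, from lists that were not part of the 34, gave the wider picture of the pathway. Their counts stand beside 64.6% of all genes called with injury in WT and 27.3% in *mdx*, and a list with a like share called is not set apart by its count. In the injury response, 4 of 10 genes for pyruvate entry to mitochondria rose and 2 fell in each genotype, led in WT by *Dlat* (1.82 ± 0.07, adjusted p = 5.93e-07), a pyruvate dehydrogenase subunit. Of 24 other glycolysis and gluconeogenesis genes 4 rose and 7 fell in WT (16 tested) and 4 rose and 2 fell in *mdx* (15 tested), with *Gpd2*, the mitochondrial glycerol phosphate dehydrogenase, up in both (3.12 ± 0.20 and 1.47 ± 0.21). Of 13 other hexose and lactate transport genes (11 tested in each genotype) 1 rose and 7 fell in WT, with *Slc2a12* at -4.03 ± 0.20, and 1 rose and 3 fell in *mdx* (-1.98 ± 0.23).

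Regulators of glucose use numbered 20, of which 6 rose and 8 fell with injury in WT and 4 rose and 7 fell in *mdx*. *Txnip*, a glucose-induced inhibitor of glucose uptake, fell in both (-4.07 ± 0.18 and -2.87 ± 0.22), as did *Mlxipl*, which encodes the glucose-sensing factor ChREBP (-4.79 ± 0.21 and -4.34 ± 0.33). *Hif1a* rose in WT (1.57 ± 0.08, adjusted p = 1.48e-06). Of 25 other glycogen genes 5 rose and 9 fell in WT and 4 rose and 5 fell in *mdx* (23 tested in each). Of 7 other pentose phosphate genes 4 rose and 2 fell in WT and 3 rose and 2 fell in *mdx*, with *Pgd* up in both (1.59 ± 0.10 and 1.06 ± 0.15). Of 15 hypoxia targets outside glycolysis 3 rose and 9 fell in WT and 0 rose and 5 fell in *mdx*, with *Ndrg1* down in both (-2.37 ± 0.14 and -1.87 ± 0.16).

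The injury response of some of these genes differed between genotypes too, where 15.1% of all genes were called. *Hif1a* had a lower response in *mdx* (-1.39 ± 0.25, adjusted p = 0.0048), as did *Gpd2* (-1.68 ± 0.29, adjusted p = 0.00425) and *Pdhx*, a pyruvate dehydrogenase component (-0.82 ± 0.19, adjusted p = 0.0159). *Txnip* (1.17 ± 0.27, adjusted p = 0.0159), *Slc2a12* (2.02 ± 0.30, adjusted p = 0.00196) and *Ldhd*, which oxidises D-lactate (2.63 ± 0.38, adjusted p = 0.00162), had higher ones. By list and among genes tested, 6 of 11 other transport genes were higher and none lower, and 2 of 20 regulators were higher and 1 lower. The other lists gave 2 higher and 0 lower of 23 glycogen genes tested and 4 higher and 1 lower of 15 hypoxia targets. They gave 2 higher and 1 lower of 16 other glycolysis genes tested, 0 higher and 1 lower of 10 pyruvate entry genes, and 0 of 7 pentose phosphate genes.

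In AMuSCs themselves, *Txnip* (1.95 ± 0.14) and its relative *Arrdc4* (1.79 ± 0.23) were higher in *mdx*, as was *Epas1*, which encodes HIF-2α (2.12 ± 0.27). The *Slc2a* family genes *Slc2a13* (2.47 ± 0.23) and *Slc2a8* (1.53 ± 0.26) were higher too. *Vegfa*, an angiogenic growth factor and hypoxia target, was lower (-1.21 ± 0.17), as were *Gpd2* (-0.67 ± 0.17) and *Pdhx* (-0.55 ± 0.13). The highest adjusted p among these 8 genes was 0.026, that of *Gpd2*. Of all genes tested, 23.7% were called. Among genes tested, the lists gave 6 higher and 0 lower of 11 transport genes, 3 and 6 of 20 regulators and 7 and 2 of 15 hypoxia targets. They gave 4 and 1 of 21 glycogen genes and 2 and 2 of 15 other glycolysis genes. Pyruvate entry gave 0 and 1 of 10 genes, and the pentose phosphate list 0 of 7. In FiMuSCs, *Vegfa* (-1.94 ± 0.12, adjusted p = 0.000927), *Mlxipl* (-1.83 ± 0.19, adjusted p = 0.00449) and the phosphorylase kinase gene *Phkg1* (-1.39 ± 0.14, adjusted p = 0.00401) were lower in *mdx*.

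Differentiation raised 10 of 10 genes for pyruvate entry to mitochondria in both genotypes, with a median log2 change of 1.82 in WT and 1.65 in *mdx*, where 69.4% and 52.2% of all genes were called. *Pdhx* (1.85 ± 0.06 and 1.75 ± 0.10) and *Pdhb* (2.22 ± 0.07 and 2.00 ± 0.16) were among them. Of 25 other glycogen genes 16 rose and 4 fell in WT and 15 rose and 4 fell in *mdx* (23 tested in each), with the glycogenin gene *Gyg* among those that rose in *mdx* (3.32 ± 0.17). Of the 7 other pentose phosphate genes 1 rose and 4 fell in WT and 0 rose and 4 fell in *mdx*, with *Tkt* (-1.70 ± 0.12 and -1.40 ± 0.15) and *Pgd* (-1.08 ± 0.12 and -1.04 ± 0.13) lower in both. *Gpd2* fell (-2.40 ± 0.06 and -2.34 ± 0.12) while cytosolic *Gpd1* rose (4.07 ± 0.20 and 4.00 ± 0.47). Of the regulators 9 rose and 5 fell in WT and 8 rose and 4 fell in *mdx*.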

How the data were processed

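RNA-seq of 24 libraries was analysed. Per the labels and the methods of the study, total RNA was extracted with PicoPure (sorted cells) or NucleoSpin (cultured cells) kits and made into directional poly(A) libraries. The authors quantified transcripts with Salmon 0.13.1 on GRCm38 (submitters' processing notes), and whether strand was used was not given in the sources used here. The deposited values are estimated counts and TPM per transcript. From these, the expected counts were summed per gene and rounded, CPM were scaled with TMM factors over all libraries, and isozyme shares were taken from the deposited TPM. Of 53391 genes, 53354 matched the GENCODE M21 annotation.

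Tests were two-sided edgeR 4.0.16 robust quasi-likelihood tests (R 4.3.3) on the groups compared, after filterByExpr, with Benjamini-Hochberg adjustment over all genes tested. There were 12 comparisons, of 6 libraries each or 12 for the differences of responses. The code was tested on simulated data. Alternatives were DESeq2 1.42.0, its size factors, no filter, a fit of all 24 libraries, an offset for effective transcript length, the replicate number as a block, copies added (blastn 2.17.0, at least 90% identity over 200 bases) and each library left out. All 34 members are named, and from other lists up to 3 genes with the smallest p per comparison, plus the values of such genes in further comparisons. Members and lists were chosen with earlier results of these data known. Totals of 37280196 to 64429222 counts limit precision little for genes above a few CPM, and p-values rest on 3 libraries per group.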

Additional observations from a re-analysis of the deposited data

Results flagged for a closer look

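The injury response differed between *mdx* and WT, by the test of the difference itself, for 7 of the 34 genes. Of all genes tested, 15.1% were called. The calls of *Ldha*, *G6pdx* and *Pdk1* were lost without some single libraries. Those of *Slc2a1* and *Pdk2* were lost with effective transcript length taken into account. As the log2 ratio of the responses, *mdx* over WT, the values were -4.65 for *Hk2*, -1.74 for *Slc16a1*, -1.55 for *Slc2a1*, -1.13 for *Ldha* and -0.62 for *G6pdx*, with higher responses of 2.40 for *Pdk2* and 2.12 for *Pdk1*. Macrophage and leukocyte markers summed to 4240 CPM in replicate 1 of the *mdx* AMuSCs and to 147 and 291 in replicates 2 and 3, and their part in these differences was not tested.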

How the results depend on the processing

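Of 154 calls of the 34 genes, 97 held under each alternative and 57 were lost under at least 1. *Mdx* against WT FiMuSCs gave 1 gene higher and 3 lower, and 6 and 5 with DESeq2 and 3 higher in one fit of all 24 libraries. With the transcript length offset and with the replicate block it gave 2 higher and 1 lower. Of all genes, 9.67% were called, and 9.41% with DESeq2, 6.31% with the offset and 5.92% with the block. AMuSCs gave 5 and 5, and 10 lower with DESeq2, 1 higher and 2 lower with the length offset, and 2 higher with the block. For the difference of the injury response, 2 higher and 5 lower became 5 and 9 with DESeq2 and 1 and 3 with the length offset. Its share of all genes called was 15.1%, and 13.0% with DESeq2 and 8.47% with the offset. In *mdx* myoblasts against AMuSCs, 6 and 3 became 2 and 1 with the length offset, 3 higher with the block, 5 lower with DESeq2 and 5 lower in one fit of all libraries. In WT the 10 lower became 6 in that fit. Of all genes, 18.9% were called in *mdx*, and 12.8% with the offset, 9.66% with the block and 16.5% with DESeq2. Genotypes of myoblasts gave 0 calls, but 2 higher with DESeq2 and 1 in one fit of all libraries. The injury response in *mdx* had 1 gene lower instead of 3 without the filter, with 14.7% of all genes called in place of 27.3%. *Pdk1*, 1.18 from *mdx* myoblasts to myotubes, reversed to -0.0359 with the length offset. The cause of these shifts was not tested.

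With each library left out, higher and lower counts ranged from 0 to 6 and 1 to 5 for FiMuSCs, 1 to 5 and 2 to 13 for AMuSCs, 1 to 4 and 3 to 11 for the difference of the injury response, 14 to 17 and 1 to 4 for injury in *mdx*, and 20 to 21 and 5 to 7 in WT. They ranged from 3 to 11 and 1 to 5 for *mdx* myoblasts against AMuSCs, 9 to 13 and 8 to 10 in WT, 17 to 19 and 5 to 6 for *mdx* myotubes, and 21 to 22 and 7 to 10 for WT myotubes. The share of all genes called also changed between such fits. Shares are given above for FiMuSCs, AMuSCs and the difference of the injury response. The ranges alone thus do not set these genes apart from all genes. Deviations of same-numbered libraries correlated between -0.225 and 0.389, and in no 2 groups compared did all 3 pairs exceed 0.1, so replicate numbers were not taken to pair the samples and the block is given only here. For myoblasts and myotubes all 6 correlations were positive (0.051 to 0.389), and 6 of 6 WT and 3 of 6 *mdx* libraries correlated best with their own number, as a hint from the data. In that step the block ended the fall of *Slc2a1* in *mdx* (adjusted p = 0.0526).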
